A study of Mus musculus with 6 samples.

Results

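The HMG, prothymosin and related nuclear protein genes were followed across the annotated cell clusters of the adult mouse olfactory bulb. They were taken by symbol, as the genes that start with Hmgb, Hmgn, Hmga, Hist, H2af, H3f3 or H1f, together with Ptma, Ptms, Set, Anp32a, Anp32b, Anp32e, Cbx1, Cbx3, Cbx5, Npm1 and Ncl. Of the 18560 genes in the count table, 90 matched. One of them, H3f3aos, is an antisense noncoding RNA with 73 counts and was set aside, which left 89 members. Levels are given as CPM, the number of counts of a gene per 1000000 counts of all genes in the cells of a cluster in one library. Of the members, 37 reached a mean of 50 CPM in a cluster or were chosen by their full symbol, and are named here. The other 52, of which 48 were clustered histone genes, had total counts of 3 to 808 and at most 42.7 CPM in any cluster. The rule uses symbols alone, but it was written with earlier results of these data known.

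These genes encode proteins that package DNA in the nucleus or handle histones. HMG box proteins bend DNA, HMGN proteins bind nucleosomes, prothymosin alpha is a very acidic protein that binds linker histones, and Set and the Anp32 proteins act as histone chaperones. Variant histones such as H3.3 and H2A.Z are made throughout the cell cycle from polyadenylated messages, whereas most clustered histone genes are expressed during DNA replication and yield messages without a poly(A) tail, which capture by oligo(dT) largely misses. In the olfactory bulb, new interneurons arrive throughout life from the subventricular zone, so that a single tissue holds migrating neuroblasts, maturing granule and periglomerular cells, and long-lived neurons and glia.

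Single cells were collected from dissociated olfactory bulbs of C57BL/6NJ wild-type mice of 14 weeks of age, in 6 libraries. The 3 conditions were control, naris occluded (sensory deprivation with a unilateral nose plug) and olfactory trained, with 2 libraries each. Trained mice were deprived of water and learned an odour discrimination task with water as the reward. The study mentions water deprivation for the trained mice only, so its part and that of training cannot be told apart. The manipulations ran for 6 weeks. Every library was a pool of mice, and sex-linked genes put males in replicate 1 and females in replicate 2 in all 6 libraries. The sample labels gave no manipulation for the control mice and the study also called its controls naive, but one passage of it named the open side of occluded mice as the control. Some olfactory epithelium was collected with the bulbs. The libraries held 6705 to 10570 annotated cells and 11841160 to 17065083 unique molecular identifier (UMI) counts, with medians of 1028 to 1723.5 UMIs per cell. Trained 1 and trained 2 are named by the library column of the annotation, against which the starts of the trained cell names are reversed, so which of them is which is uncertain. In all, 51426 cells carried an annotation of 38 clusters and 21746 neurons a second one of 18 clusters, and 1461 barcode sequences occurred in more than 1 library. Cluster names are those of the deposited annotation. Judged by cell numbers, the table of the study exchanges MicroG1 with MicroG2, Astro2 with Astro3, Mes1 with Mes2, OEC2 with OEC5 and OEC3 with OEC4, and numbers the neuronal clusters of the whole bulb differently. The immature neuron markers Dcx, Sox11, Sox4, Igfbpl1 and Cd24a were all highest in n04-Immature among neurons, as its name says, whereas the neuronal cluster n13-AstrocyteLike had the highest astrocyte markers among neurons (Aldoc, 878 CPM).

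Members made up 811934 of 90151940 UMIs (0.901%), and from 0.829% to 1.01% of the UMIs of a library. Ptma, H3f3b and H3f3a together held 42.1% of the member counts, and the 57 clustered histone genes held 75528 counts. Means of CPM stand with the SD over the 6 libraries. Because each message gave 1 tag near its 3′ end, CPM needed no correction for length. Several members have near-identical copies or processed pseudogenes (Hmgb1, Hmgn2, H3f3a, H3f3b, Ptma, Npm1, Set, H2afz and the clustered histones), so their counts could be split or lost and are uncertain. Clusters had been built from the same expression values, so levels between clusters are described and not tested.

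Promoters of 4 members that the results below turn on are shown first, as the stretch from 250 bases before to 50 bases after a RefSeq transcript start (GRCm38.p6), 5′ to 3′ on the strand of the gene. The start listed for H3f3b lies inside the annotated gene, downstream of its outermost 5′ end. Capitals mark the CCAAT box on either strand (CCAAT or ATTGG) and TATAAA. Hmgb2 (chr8:57511593-57511892, plus strand) was the member that differed between conditions. H2afz (chr3:137864237-137864536, plus strand) was not called between conditions but, like Hmgb2, was higher in n04 cells with counts of cell division genes. H3f3a (chr1:180813556-180813855, minus strand) and H3f3b (chr11:116024455-116024754, minus strand) encode the same H3.3 protein but had different patterns.
Hmgb2: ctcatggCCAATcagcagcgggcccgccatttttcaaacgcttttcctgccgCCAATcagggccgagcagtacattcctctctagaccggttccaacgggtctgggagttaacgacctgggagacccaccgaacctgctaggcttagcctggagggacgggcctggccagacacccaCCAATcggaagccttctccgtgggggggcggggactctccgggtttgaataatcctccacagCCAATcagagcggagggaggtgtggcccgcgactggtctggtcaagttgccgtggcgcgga
H2afz: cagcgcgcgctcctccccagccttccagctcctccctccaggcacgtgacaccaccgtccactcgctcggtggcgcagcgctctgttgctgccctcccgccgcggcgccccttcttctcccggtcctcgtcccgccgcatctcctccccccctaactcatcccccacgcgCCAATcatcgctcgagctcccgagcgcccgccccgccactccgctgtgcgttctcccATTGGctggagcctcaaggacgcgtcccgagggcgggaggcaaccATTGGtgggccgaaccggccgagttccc
H3f3a: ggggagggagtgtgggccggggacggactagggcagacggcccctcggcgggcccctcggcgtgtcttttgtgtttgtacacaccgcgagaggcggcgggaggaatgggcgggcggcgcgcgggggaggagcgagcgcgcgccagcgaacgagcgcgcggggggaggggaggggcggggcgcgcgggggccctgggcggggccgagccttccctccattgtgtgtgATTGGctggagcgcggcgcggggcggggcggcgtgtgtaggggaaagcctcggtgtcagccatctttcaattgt
H3f3b: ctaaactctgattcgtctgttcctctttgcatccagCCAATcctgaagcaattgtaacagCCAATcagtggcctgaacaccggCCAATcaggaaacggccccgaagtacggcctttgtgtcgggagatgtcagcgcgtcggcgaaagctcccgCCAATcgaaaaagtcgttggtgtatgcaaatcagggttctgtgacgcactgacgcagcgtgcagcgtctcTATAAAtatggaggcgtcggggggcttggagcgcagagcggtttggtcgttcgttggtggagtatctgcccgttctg
The CCAAT box occurred 4 times in the Hmgb2 and H3f3b promoters, 3 times in that of H2afz and 1 time in that of H3f3a, and of these only H3f3b held TATAAA. Among members, 87 matched a RefSeq gene and 79 had a promoter in the table. A gene with several listed starts was counted as holding a motif if any of its windows did. A CCAAT box was found for 61 of the 79 (77.2%), compared with 41.1% of 27025 genes with windows of the same length. The share was 84.0% for the clustered histone genes (42 of 50) and 65.5% for the other members (19 of 29). TATAAA, also searched on both strands, was found for 31 of 50 clustered histone genes and for 1 of 29 others, compared with 15.7% of all genes. GGGCGG, searched on both strands, was found for 44.0% of the clustered histone genes and 79.3% of the other members, compared with 38.2% of all genes. Some neighbouring clustered histone genes lie closer together than the length of a window, so their windows may overlap and share a motif. These matches describe letters in the window and say nothing of binding.

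Among the 18 neuronal clusters, the summed members were highest in n04-Immature, at 22222 ± 1193 CPM (SD, n = 6 libraries, 3910 cells). Next came the granule cell cluster n03-GC-1 at 15938 ± 1027 CPM and the periglomerular cluster n02-PGC-1 at 14689 ± 1068 CPM. The lowest was the mitral and tufted cell cluster n15-M/TC-1 at 3455 ± 602 CPM. The 6 libraries of n04 ranged from 20254 to 23567 CPM and those of n03 from 14464 to 17117 CPM, without overlap. Of the 17 steps between neighbours in this order, the only other one without overlap of library ranges was from n13-AstrocyteLike (6746 CPM) to n17-M/TC-3 (5457 CPM). Depth and mitochondrial share moved with this order in part. Cells of n04 had a median of 1668 UMIs and 8.44% mitochondrial counts, whereas n01-OSNs, low in members, had 808.5 UMIs and 39.0%, and n07-GC-2 had 882 UMIs and 17.4%. With mitochondrially encoded genes left out of the total, an alternative added after the data had been seen, n04 (24388 CPM), n03 and n02 were still the highest in that order and n15-M/TC-1 the lowest, whereas n01 moved from rank 17 to 13 (4195 to 7094 CPM).

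**Figure D1:**
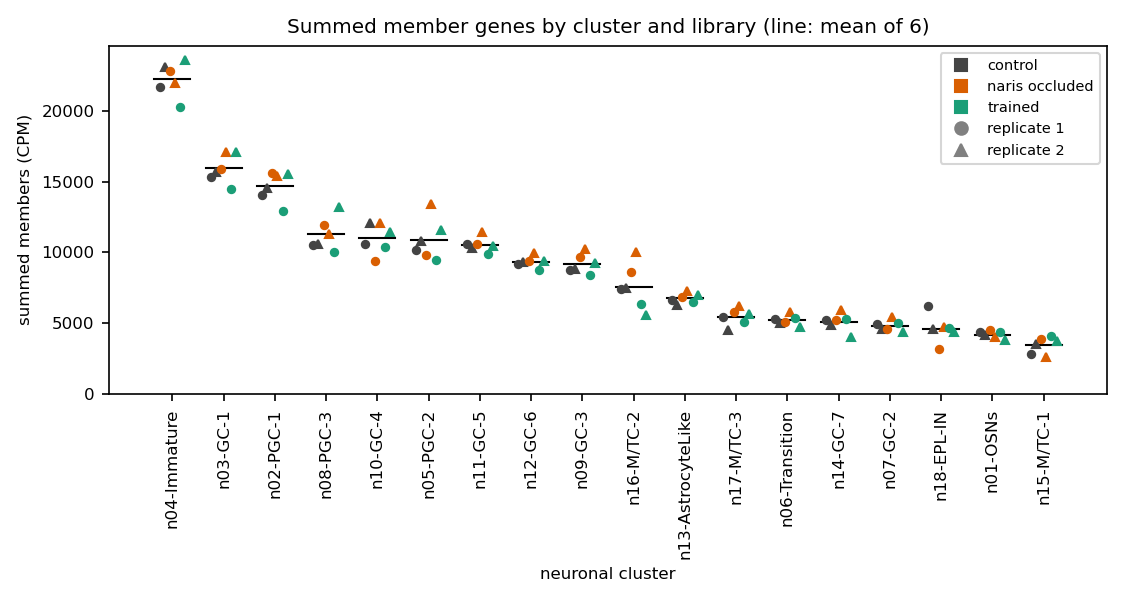
Summed level of the 89 members in each of the 18 neuronal clusters, in CPM on a linear axis from 0, with 1 point per library (colour for condition, circle for replicate 1 and triangle for replicate 2) and a line at the mean of 6. All points of n04-Immature lie at or above 20254 CPM, over every point of n03-GC-1, and the 3 conditions overlap there.

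The study placed most interneuron clusters on 2 paths out of n04. The first (n02, n03, n05, n08, n10, n11, n12 and n14) is called path A here and the second (n06, n07 and n09) path B, and the counts of each path were summed. The summed members were higher in n04 than in path A by 0.86 ± 0.10 on the log2 scale (SD, n = 6), and higher than in path B by 2.08 ± 0.17. Clusters of the 2 paths crossed, since n09 of path B had 9186 CPM and n14 of path A had 5093 CPM. Path B was mostly n06 and n07 (2085 and 3608 cells, compared with 273 of n09), so its value mainly describes these. Of the 31 members with at least 50 CPM in one of the 3, 24 (77.4%) were above path A in all 6 libraries and 2 were below, compared with 29.8% of 4558 genes above. Against path B, 28 of 31 (90.3%) were above and 1 below, compared with 40.4% of genes. The median log2 ratio of members was 0.60 against path A, and that of all genes was −0.14. A list of other chromatin and nucleolar genes lay between, with 19 of 32 above path A (59.4%) and a median of 0.46. The 3 with the largest ratio in that list were Ezh2, a histone methyltransferase (2.5, from 94.7 against 15.95 CPM), Chaf1b, a chaperone used in replication (2.40, but only 6.53 CPM in n04), and the deacetylase Hdac2 (1.80, from 311 against 88.9 CPM).

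The HMG genes with the largest log2 ratio of n04 to path A were Hmgb2 (2.67 ± 0.76), Hmgn2 (2.26 ± 0.40) and Hmgb3 (1.92 ± 0.21). The ratio of Hmgb2 rested on few cells, since 44 n04 cells held 820 of its 1142 counts there. In n04 cells without counts of cell division genes it had 45.2 CPM, compared with 47.7 CPM in n05-PGC-2 and 24.6 CPM in path A. The first value was pooled over libraries, whereas the others are means over libraries of all cells, also those with division counts. After thinning to 500 UMIs per cell, a Hmgb2 UMI was found in 2.97% of n04 cells and 1.83% of n02 cells. Hmgb3 had 431, 468, 446, 442, 445 and 460 CPM in n04 in control 1 and 2, occluded 1 and 2 and trained 1 and 2 (the order used throughout). Its next highest cluster, n10-GC-4, ranged from 165 to 306 CPM, below every n04 library. Hmgn2 had 648, 763, 689, 665, 624 and 887 CPM in n04 and 180 to 329 CPM in n03. For both genes every library of n04 lay above every library of all other neuronal clusters. In cells thinned to 500 UMIs each, a UMI of Hmgb3 was found in 18.8% of n04 cells and in at most 8.22% of the cells of another neuronal cluster. Without thinning the shares were 46.9% in n04 (median 1668 UMIs) and 43.9% in n12-GC-6 (median 3533 UMIs), so that this contrast rests on thinning to equal depth. Hmgb1 and Hmgn1, which are widely expressed, were higher in n04 than in path A by smaller log2 ratios of 0.48 and 0.69.

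Ptma, which encodes prothymosin alpha, was also highest in n04, followed by n03 and n02. It had 3963, 4100, 4237, 4112, 3872 and 4382 CPM in n04, and 2085 to 2529 CPM in n03. The log2 ratio of n04 to path A was 1.45 ± 0.06, the smallest SD among members with a ratio over 1. Parathymosin, encoded by Ptms, differed less, with a log2 ratio of 0.45 to path A and 1.39 to path B. Of the histone chaperones, Set was higher in n04 by 0.92, Anp32b by 0.55 and Anp32e, the chaperone that removes H2A.Z, by 0.45, whereas Anp32a differed by 0.04 and was highest in n12-GC-6 (495 ± 64 CPM). The heterochromatin protein genes Cbx1 and Cbx3 had log2 ratios of 0.90 and 0.56, and Cbx5 one of 0.18. Of the nucleolar pair, Npm1 had a ratio of 0.83 and Ncl of 0.15.

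Among variant histones, H3f3a stood out from H3f3b. H3f3a had 2766, 3152, 3264, 2786, 2698 and 3398 CPM in n04 and 970 to 1175 CPM in n03, without overlap. H3f3b had 4442, 4545, 4821, 4840, 3240 and 4578 CPM in n04 but 4866, 4790, 4903, 5558, 3663 and 5210 CPM in n03. H3f3b was thus slightly higher in n03 than in n04 within every library, while trained 1 was the lowest library in both clusters. The number of H3f3b counts per H3f3a count was 1.47 ± 0.19 in n04, 4.50 ± 0.59 in n03 and 4.35 ± 0.37 in n02. H2afy2, which encodes a macroH2A, had a log2 ratio of n04 to path A of 1.63 ± 0.17, with 173, 234, 229, 232, 227 and 227 CPM in n04 and 70.0 to 184 CPM in n08-PGC-3, so that these ranges overlapped. The H2A.Z genes H2afz and H2afv had ratios of 0.76 and 0.81, the damage-responsive H2afx 0.69, and the linker histone genes H1f0 and H1fx 0.93 and 0.81.

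A few members ran against this order. Hmgn3 was lower in n04 than in path A by a log2 ratio of −1.66 ± 0.26. It had 142, 105, 80.4, 112, 105 and 103 CPM in n04, compared with 422, 405, 330, 596, 429 and 466 CPM in n05-PGC-2. No n04 library reached the lowest n05 library, and in cells thinned to 500 UMIs a Hmgn3 UMI was found in 4.66% of n04 cells and in 17.8% of n05 cells. A low level was not particular to n04. The mean was 95.1 CPM in n08-PGC-3 and 113 CPM in n09-GC-3, with thinned shares of 6.81% and 4.76%. Hist1h2bc, a clustered H2B gene, was lower in n04 by −0.95 and had 119 CPM there, compared with 357 CPM in n13-AstrocyteLike. Across the 18 clusters, the correlation of each log2 level with that of the other members summed was 0.97 for Hmgn1, 0.96 for H3f3a and 0.96 for Hmgb1, but 0.13 for Hist1h2bc, 0.04 for Hmgn3 and −0.34 for Hist2h2be. These clusters share libraries and differ in depth, and the values are a description.

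**Figure D2:**
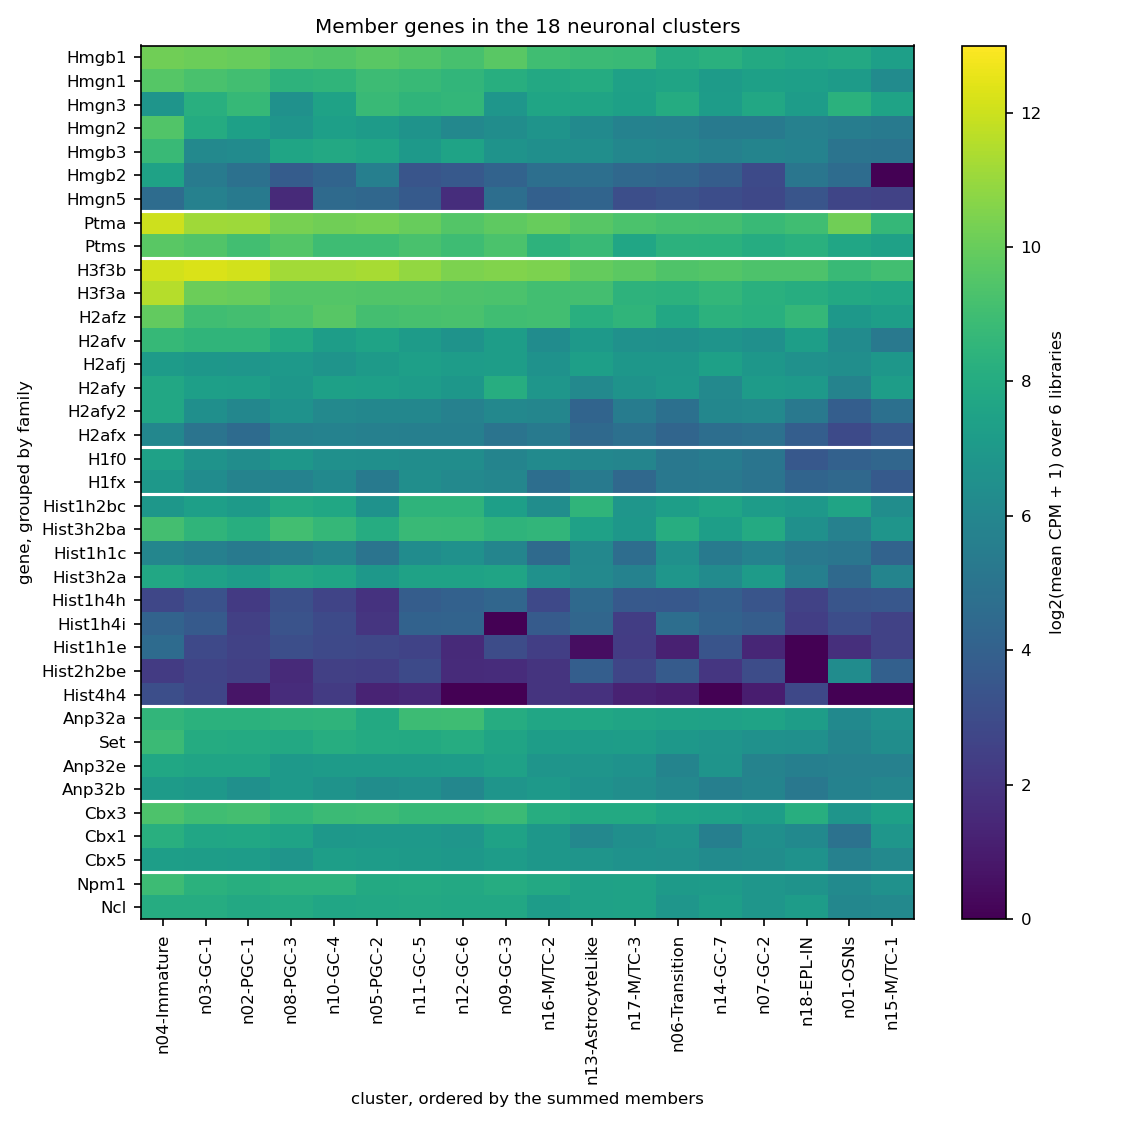
Mean level of the 37 named members (rows, grouped by family) in the 18 neuronal clusters (columns, ordered by the summed members), as colour on the scale log2(mean CPM + 1) over 6 libraries. Most rows are brightest in n04-Immature at the left. Within its own row, Hmgn3 is darker there than in most other clusters, and Hist2h2be is brightest in n01-OSNs.

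Hist2h2be encodes an H2B variant known from olfactory sensory neurons. Here it had 78.0, 66.2, 58.0, 95.9, 86.6 and 94.6 CPM in n01-OSNs, the cluster marked by Omp, Gng13 and S100a5. The next highest neuronal mean was 14.6 CPM in n15-M/TC-1, which rests on 90 cells and was 0 in 4 of 6 libraries. In cells thinned to 500 UMIs a UMI of the gene was found in 3.08% of n01 cells and in 0.154% of n04 cells, and in 3.33% of the 90 cells of n15. Of the 33 members with at least 50 CPM in a neuronal cluster, it was the only one with its highest mean in n01 (3.03%, compared with 2.38% of genes). By the same count, 22 of the 33 (66.7%) were highest in n04, compared with 10.6% of 7021 genes.

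In the annotation of the whole bulb, the summed members were highest in N3 (25558 ± 5345 CPM, 473 cells), followed by N1 (22187 ± 1275 CPM). N3 and N1 overlapped in range, and N1 lay above the next cluster, N4 (15757 ± 914 CPM), without overlap. N3 and N1 were mostly the cells of n04, since 448 of the 3910 n04 cells carried the name N3 and 3283 the name N1. The cell division list held Mki67, Top2a, Cdk1, Ccnb1, Ccnb2, Ccna2, Cenpf, Birc5, Ube2c, Tyms, Rrm2, Mcm5 and Pcna. It was higher in N3, at 1288 CPM summed, than in N1, at 158 CPM. Not every gene of it was high in n04. Mki67 had 21.0 CPM in n04 and 69.5 CPM in path B, and Pcna 49.0 CPM in n04 and 42.2 CPM in path A. The list summed to 117 CPM in n06-Transition and 122 CPM in n07-GC-2, so a single UMI of it need not mark a dividing cell. The lowest clusters were N5 (3903 ± 319 CPM) and red blood cells (2315 ± 1320 CPM). N5 had a median of 42.5% mitochondrial counts, and with these left out it had 6880 CPM and moved from rank 37 to 31, whereas N3, N1 and N4 stayed the highest in that order. Of the 37 named members, 15 were highest in N3 (40.5%, compared with 3.25% of 8795 genes) and 9 in N1 (24.3%, compared with 4.0%). Among these Hmgb1 had 1786 ± 490 CPM in N3 against 1103 ± 40 in N1, and H2afz had 2106 ± 1133 against 848 ± 83 CPM.

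**Figure D3:**
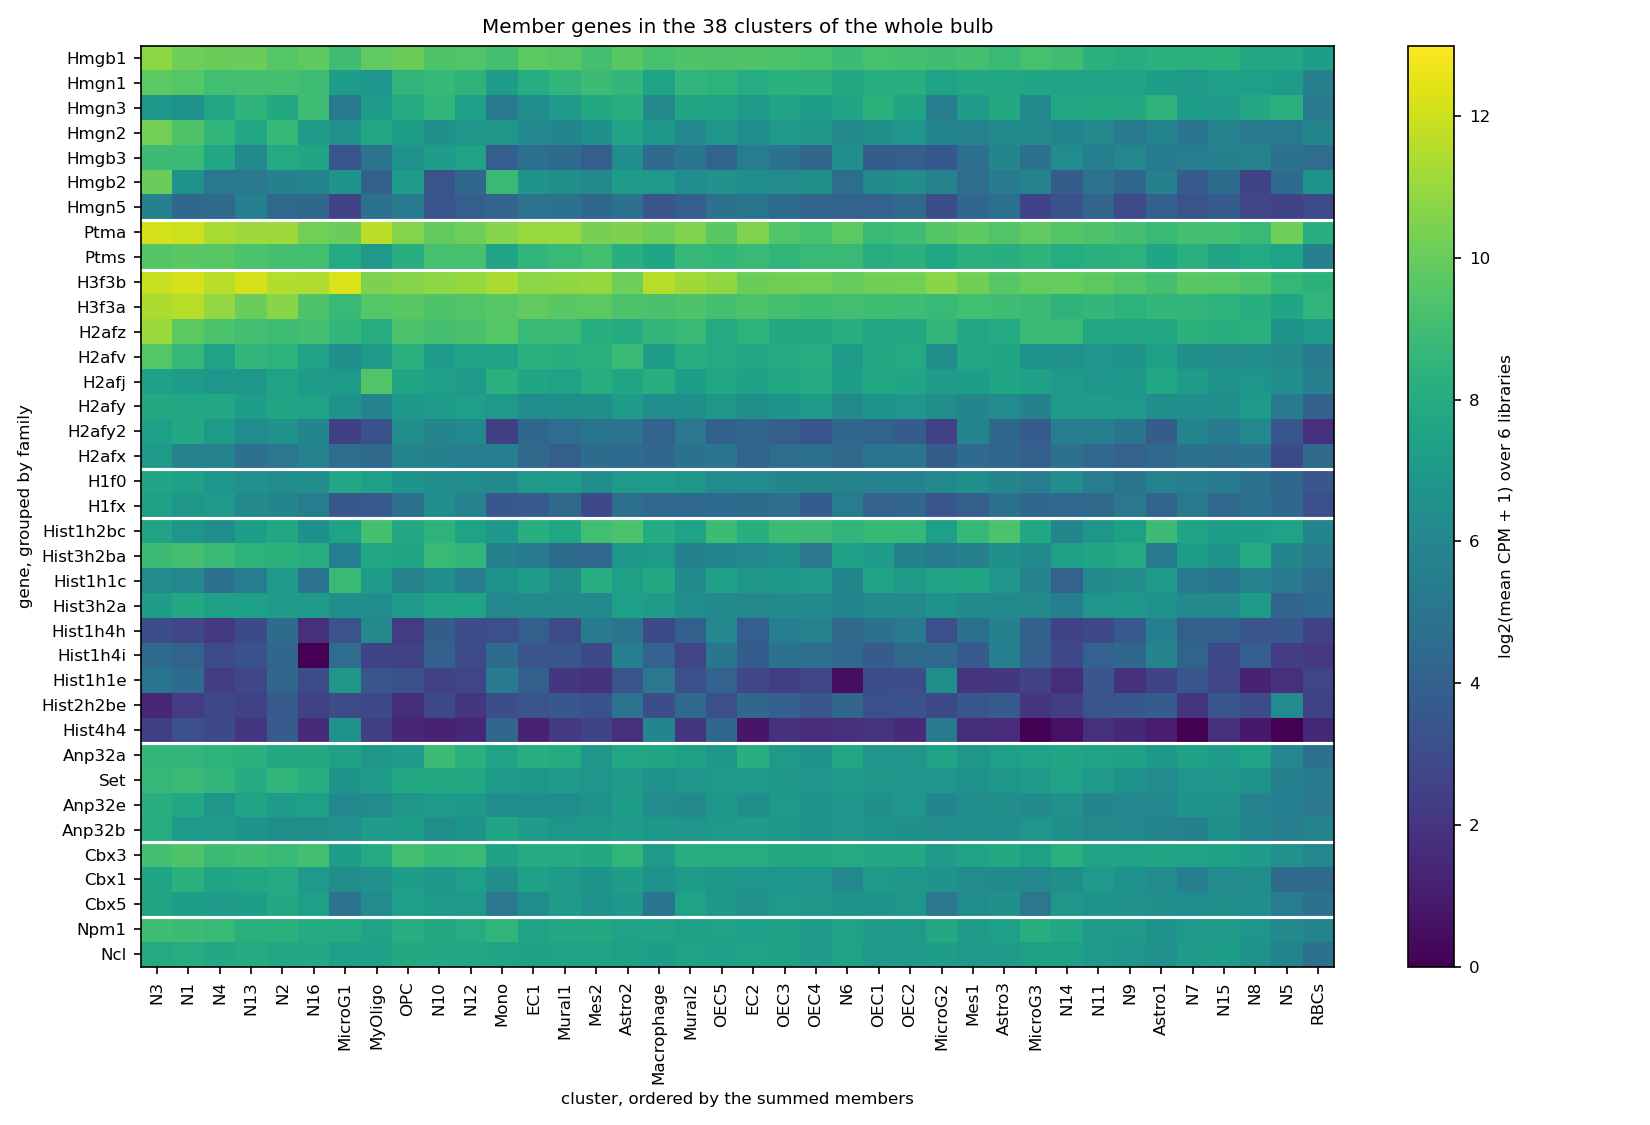
Mean level of the 37 named members (rows, grouped by family) in the 38 clusters of the whole bulb (columns, ordered by the summed members), as colour on the scale log2(mean CPM + 1) over 6 libraries. Within their own rows, H3f3b and the linker histone gene Hist1h1c are brightest in MicroG1, H2afj in MyOligo and Hist2h2be in N5.

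A few glial clusters held the highest level of a histone gene. H2afj, an H2A variant gene, had 650, 700, 683, 677, 813 and 726 CPM in myelinating oligodendrocytes (MyOligo), compared with 229 to 361 CPM in monocytes, the next highest cluster. Hist1h2bc was highest in Astro2 (634 ± 46 CPM) and Astro3 (626 ± 57 CPM), which did not differ beyond their spread. Ptma, high in n04, also reached 3227 ± 214 CPM in MyOligo. Hmgb2 outside neurons was highest in monocytes, at 442 ± 292 CPM, a spread that left its level poorly fixed.

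MicroG1 (790 cells) was the cluster with the highest mean of 5 of the 37 named members (13.5%, compared with 1.75% of 8795 genes). These were H3f3b, Hist1h1c, H1f0, Hist1h1e and Hist4h4. For H3f3b and H1f0 the next highest cluster was neuronal and close, with 5042 CPM against 4619 CPM in N13 and 216 CPM against 196 CPM in N3. For the others it was 440 CPM against 265 CPM in Mes2 (Hist1h1c), 115 CPM against 88.9 CPM in MicroG2 (Hist1h1e) and 98.7 CPM against 60.2 CPM in macrophages (Hist4h4). A high H3f3b level was thus not particular to MicroG1. H3f3b had 4810, 4857, 4727, 5316, 5113 and 5431 CPM in MicroG1 and 1590, 1761, 1647, 1832, 1407 and 1590 CPM in MicroG2, the larger microglial cluster of 2260 cells. H3f3a had 365 to 536 CPM in MicroG1 and 400 to 545 CPM in MicroG2, which overlapped. The linker histone genes were also higher, Hist1h1c with 359 to 497 CPM against 162 to 201 CPM and H1f0 with 182 to 258 CPM against 63.3 to 78.5 CPM. Hist1h1e ranged from 92.5 to 134 CPM and from 75.9 to 107 CPM, so that those ranges overlapped. All 4 microglial markers were lower in MicroG1 than in MicroG2, from C1qa (10417 and 11372 CPM) to P2ry12 (1641 and 2094 CPM). The macrophage markers Pf4, Mrc1 and Ms4a7 were at most 7.88 CPM in either. The monocyte and antigen presentation markers were higher in MicroG1, with 184 and 88.1 CPM for Cd74, 47.0 and 23.2 CPM for H2-Ab1 and 18.3 and 10.2 CPM for H2-Aa, and their part in the difference was not tested. The summed early response genes (Fos, Jun, Junb, Egr1, Ier2, Hspa1a, Hspa1b and Atf3), which cell dissociation can induce, moved with H3f3b here, with 10340 to 12564 CPM in MicroG1 and 1232 to 1933 CPM in MicroG2. Their part in the difference was not tested.

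The number of H3f3b counts per H3f3a count was 11.4 ± 1.9 in MicroG1, 5.17 ± 1.32 in macrophages and 3.78 ± 0.55 in MicroG2, and 1.46 ± 0.19 in N1. Over the 21 non-neuronal clusters other than red blood cells, the log2 ratio and the log2 sum of the early response genes had a Pearson correlation of 0.81, and over the 16 clusters N1 to N16 one of −0.10. Clusters share libraries and are not replicates, so these values are a description. Ensheathing cells gave a weaker contrast than microglia. In OEC5, with 5406 to 9138 CPM of early response genes, H3f3b had 1436 to 2071 CPM, and in OEC4, with low early response genes, it had 1002 to 1346 CPM.

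**Figure D4:**
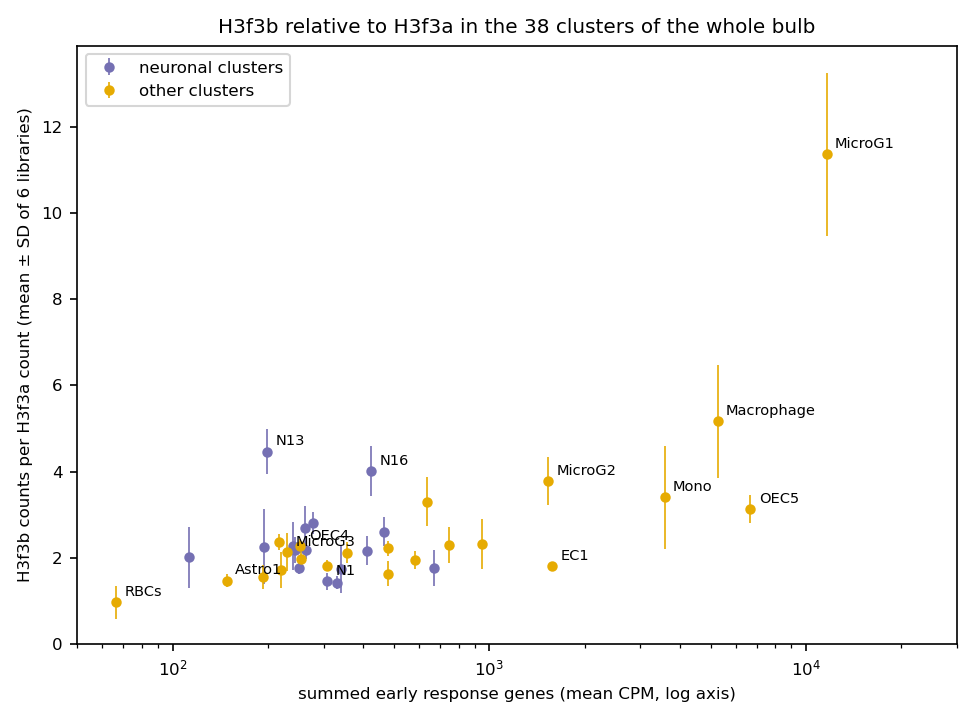
H3f3b counts per H3f3a count (vertical, linear, mean ± SD of 6 libraries) against the summed early response genes (horizontal, mean CPM, log axis) in the 38 clusters of the whole bulb, neuronal and other clusters in separate colours. MicroG1 lies at the upper right with a ratio of 11.4, and N13 and N16 have ratios of 4.46 and 4.02 at a low early response level.

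Conditions were compared in 8 clusters with edgeR on the counts summed per library and cluster, with p-values adjusted over all genes tested in the cluster. Both comparisons used the same control libraries. Since the libraries were few, an exact permutation test of 2 libraries against 2 cannot go below a p of 0.333, and the calls rest on the spread shared across genes. Fewer cells of a kind and less RNA per cell of it cannot be told apart in such sums. In n04 the summed members were 21667 and 23084 CPM in the control libraries, 22788 and 21970 CPM in the occluded and 20254 and 23567 CPM in the trained libraries, which overlapped. In MicroG1 they were 10439 and 10451 CPM in control, 10650 and 11015 CPM in occluded and 11646 and 11715 CPM in trained libraries, without overlap. Under occlusion the control libraries also lay below the occluded ones in n03 and OEC3, and in every other cluster and comparison of the 8 clusters the ranges overlapped. The sums were not tested, and a lack of overlap of 2 libraries against 2 corresponds to no more than the permutation p of 0.333 above.

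Of 269 tests of members in the 8 clusters, 1 was called lower under naris occlusion and 1 lower under training at an adjusted p under 0.05 (edgeR), and none was called higher. Both calls were Hmgb2 in n04, where 39 members were tested and 50 were too low. At an unadjusted p under 0.05, 13 of the 269 tests (4.83%) passed in each comparison, compared with 4.75% of the tests of all genes under occlusion and 6.54% under training. The share varied by cluster, and in n04 under occlusion it was 5 of 39 members (12.8%, compared with 4.59% of genes). The share of all genes called under occlusion was 0.118% in n04, 0.114% in n03, 0.0115% in EC1, and 0% in n05-PGC-2, n07-GC-2, Astro1, OEC3 and MicroG1. Under training it was 0.0215% in n04, 0.0286% in n03, 0.134% in n07, 0.239% in Astro1, 0.123% in OEC3, 0.462% in EC1, and 0% in n05 and MicroG1. Among the other chromatin and nucleolar genes, 0 of 267 tests were called in either comparison with edgeR. MicroG2 and n01-OSNs were added after the data had been seen. None of the 34 and 23 members tested there was called, where 0.0526% and 0.287% of genes were called under occlusion and 0.079% and 0% under training. Hist2h2be in n01 differed from control by 0.02 under occlusion and 0.24 under training on the log2 scale. Under training, 3 of 23 members in n01 (13.04%) passed at an unadjusted p under 0.05, compared with 5.11% of genes. One was H2afz, with 106 and 80.7 CPM in control and 200 and 138 CPM in trained libraries (log2 0.88, adjusted p = 0.651, edgeR). Hist4h4 in MicroG2 had 52.9 and 60.2 CPM in control and 23.3 and 24.4 CPM in trained libraries, with an adjusted p of 0.052 (edgeR). In that cluster under training, 6 of 34 members (17.6%) passed at an unadjusted p under 0.05, compared with 5.37% of genes.

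Hmgb2 encodes an HMG box protein abundant in dividing cells. In n04 it had 281 and 303 CPM in the control libraries, 88.3 and 79.3 CPM in the occluded and 173 and 175 CPM in the trained libraries, scaled by TMM factors. All 4 manipulated libraries lay below both control libraries, and the occluded below the trained. The log2 fold change was −1.80 under occlusion (SE 0.14, adjusted p = 5.43e-10, edgeR) and −0.74 under training (SE 0.13, adjusted p = 0.0217, edgeR). The second call was lost at a similar log2 fold change with DESeq2 (−0.74, adjusted p = 0.659) and with edgeR without control 1 (−0.80, adjusted p = 0.36) or control 2 (−0.69, adjusted p = 0.393). H2afz had 1000 and 1191 CPM in control, 807 and 879 CPM in occluded and 943 and 978 CPM in trained libraries, and was not called (occlusion −0.38, adjusted p = 0.525, edgeR). H2afx had a log2 fold change of −0.73 under occlusion (adjusted p = 0.223, edgeR) and was not called either.

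Some cell division genes moved with Hmgb2. Of 11 genes of the cell division list tested in n04, 4 were called lower under occlusion with edgeR, namely Ccnb1 (−3.37), Ube2c (−3.06), Cenpf (−2.54) and Top2a (−2.30), and 0 were called under training. The Hmgb2 counts were held by few cells. The 44 n04 cells with at least 3 UMIs of the division list, of 3910, held 820 of the 1142 Hmgb2 counts of the cluster. They numbered 9 of 721 and 10 of 429 cells in control, 4 of 563 and 6 of 939 in occluded, and 5 of 696 and 10 of 562 in trained libraries. The shares were 1.25% (exact 95% interval 0.572% to 2.36%) and 2.33% (1.12% to 4.25%) in control, 0.711% (0.194% to 1.81%) and 0.639% (0.235% to 1.39%) in occluded, and 0.718% (0.234% to 1.67%) and 1.78% (0.857% to 3.25%) in trained libraries. These intervals overlapped and cover counting error only. The level of Hmgb2 inside these cells was 5533 and 3679 CPM in control, 1998 and 2076 CPM in occluded and 6345 and 2985 CPM in trained libraries, so that the occluded libraries were below all others in these few cells. The 44 cells had a median of 4974.5 UMIs, compared with 1658 in the other cells.

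In n04 cells without any division UMI, a choice made after the data had been seen, Hmgb2 was not called between conditions. The choice also leaves out most of the Hmgb2 counts. Hmgb2 then had 44.7 and 52.4 CPM in control, 45.2 and 46.9 CPM in occluded and 31.9 and 57.4 CPM in trained libraries, and the trained libraries spanned all others. The log2 fold changes were −0.05 and −0.10, both with an adjusted p of 0.999 (edgeR). Without the cells that the whole-bulb annotation put in N3, they were −0.69 (SE 0.31, adjusted p = 1, edgeR) and −0.01. Within N3 itself, Hmgb2 had 2113 and 1833 CPM in control, 620 and 20.8 CPM in occluded and 766 and 951 CPM in trained libraries, and the division list had 2409 and 2527, 1239 and 83.1, and 796 and 676 CPM in the same order. N3 held 93, 59, 61, 69, 117 and 74 cells in the 6 libraries, and the 69 of occluded 2 held a single Hmgb2 count. In control 1 and 2, the n04 cells named N3 held 250 of 335 and 132 of 230 Hmgb2 counts of n04. In occluded 2 they held 1 of 106, whereas the 6 n04 cells with at least 3 division UMIs held 40. The Hmgb2 counts of these 6 cells thus lay almost wholly outside N3. Values within or without N3 therefore do not compare like cells between these libraries.

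**Figure D5:**
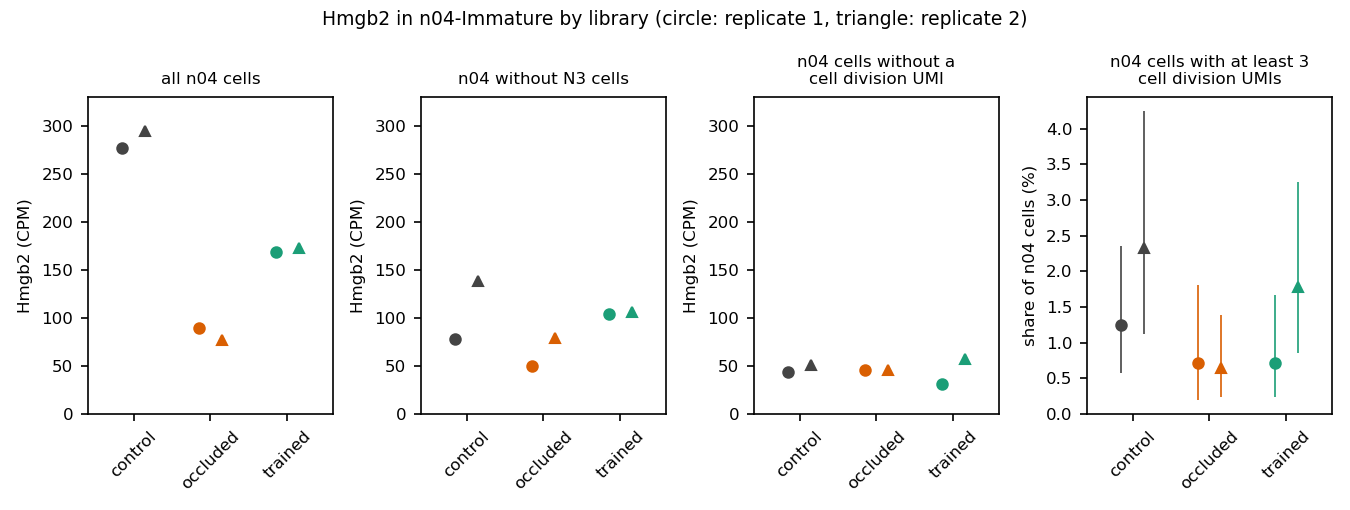
Hmgb2 level (CPM, linear axis from 0) in n04-Immature by library for all cells, without N3 cells and for cells with no division UMI, and at the right the share of n04 cells with at least 3 division UMIs (percent, bars are exact 95% intervals). Circles are replicate 1 and triangles replicate 2. The control libraries stand above the others in the first panel, and all conditions lie between 31.2 and 56.8 CPM in the third.

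The 44 n04 cells with at least 3 division UMIs differed from the rest in other members as well. Hmgb2 had 3929 CPM in the 44 cells and 45.2 CPM in cells with no division UMI, a ratio of 86.9. The ratio was 10.5 for H2afx, 7.74 for H2afz, 5.55 for Hmgn2 and 3.66 for Hmgb1. Some members were lower in those cells, with ratios of 0.381 for Hist3h2ba, 0.509 for Hist3h2a and 0.695 for Ptms. The cells were pooled over libraries and picked by genes tied to division, so these ratios are a description of the 44 cells.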

How the data were processed

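Single cell libraries of dissociated olfactory bulbs were made by the authors with the Chromium 3′ v2 kit. The submitters' processing notes name Cell Ranger 2.0.0, the mm10 build and Seurat 2.2.1. The deposited values used were raw UMI counts per gene and cell, from cells with a minimum number of genes. The authors also deposited the mitochondrial fraction, library and cluster of each cell, which were used as given, and a log-normalized copy that was not used. Cells were assigned to libraries by the annotation column, although the starts of the trained cell names give the reverse order of trained 1 and trained 2. The methods of the study say that doublets had been taken out, and no doublet caller was run here.

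Counts were summed per library and cluster. Conditions were compared with edgeR 4.0.16 (TMM, filterByExpr, quasi-likelihood test, all 6 libraries, Benjamini-Hochberg over all genes tested, threshold 0.05) under R 4.3.3. Standard errors were derived from the fold change and its test statistic. Log2 ratios between clusters used a pseudocount of 1 CPM. Named members were those chosen by full symbol, family members of at least 50 CPM in a cluster, and any called. Members and gene lists were chosen with earlier results of these data known. Shares of cells with a UMI were taken after thinning each cell to 500 UMIs, or 1000 as an alternative. Other alternatives were DESeq2 1.42.0, other scaling, filters and subsets of cells or libraries. The fit was tested on simulated data, where it recovered 54.2% of the genes changed by a log2 of 1 under naris occlusion in n04, but 12% in n05-PGC-2, where few calls could be made. Replicates were pools of mice. The number of independent pools limits all tests.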

Additional observations from a re-analysis of the deposited data

Results flagged for a closer look

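Hmgb2 went in opposite directions in n04-Immature and in several other clusters, with the libraries of control and of the manipulated condition not overlapping in either. Under naris occlusion, where it fell in n04, its log2 fold change was 0.258 in n03-GC-1, 0.288 in OEC3 and 0.275 in EC1. Under training it was 0.455 in Astro1, 0.277 in MicroG1 and 0.142 in EC1. In n05-PGC-2 it went the same way as in n04 without overlap, by −0.64 under occlusion and −0.69 under training, and in MicroG2 by −0.81 under training. Several of these values were small beside their SE, such as 0.258 in n03 (SE 0.328) and 0.142 in EC1 (SE 0.179). In EC1 under training, control 2 had 107.5 CPM and trained 1 had 107.6 CPM. A lack of overlap of 2 libraries against 2 corresponds to a p of 0.333 in an exact permutation test. Its share over all genes is not given here. None of the values in these other clusters passed the edgeR test, and the differences between clusters were not tested.

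The 1123 barcodes without an annotation entered no comparison. Their summed members reached 7254.9 CPM, compared with 9067 CPM in annotated cells, at medians of 2327 and 1354 UMIs. Hmgb2 had 55.0 CPM in them and 73.8 CPM in annotated cells.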

How the results depend on the processing

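The log2 ratio of the summed members in n04 to path A lay between 0.823 and 0.902 under the alternatives with other totals or cells, and between 0.843 and 0.894 with 1 library left out. That to path B lay between 1.956 and 2.123, and between 2.039 and 2.13 with 1 library left out. The number of members highest in n04 was 20 to 23. Under occlusion, 2 members were called with no filter on low counts and with only the 4 libraries compared, and 1 to 2 with 1 library left out (2 without trained 1 or without trained 2). The second was always Hist1h2al in n04. Under training, 0 were called with DESeq2, and 0 to 3 with 1 library left out. The count was 0 without control 1 or control 2, and 3 without trained 2, when H1f0 in n04 and in EC1 was called too. With n04 taken without the N3 cells, or without cells that held a division UMI (both added after the data had been seen), 0 members were called in either comparison. The cause of these changes was not tested. Of the 1142 Hmgb2 counts in n04, 820 came from 44 cells. Thinning to 1000 UMIs in place of 500, which leaves out shallower cells (853 in n04 and 828 in n01), gave shares of 35.2% for Hmgb3, 6.12% for Hmgb2 and 9.49% for Hmgn3 in n04 and 8.60% for Hist2h2be in n01.

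The replicate numbers are shared by the conditions, with males in replicate 1 and females in replicate 2. The labels do not tie them to the same mice, but same-numbered control and occluded libraries would share mice if the controls were the open sides, which is not settled. Deviations of same-numbered libraries had correlations of 0.05 to 0.19. With the replicate block 1 member was called in each comparison, Hmgb2 in n04, with log2 fold changes of −1.80 (adjusted p = 4.46e-09, edgeR) and −0.74 (adjusted p = 0.0247, edgeR).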
